A study of Homo sapiens with 2 samples.

Results

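Notch is a signalling pathway between touching cells, and 10 of its genes were compared between a highly metastatic gastric cancer line, MKN45P, and its parent, MKN45. The 10 genes were the receptors NOTCH1, NOTCH2, NOTCH3 and NOTCH4, the ligands JAG1, JAG2, DLL1 and DLL4, and the target genes HES1 and HEY1. They were taken by gene symbol, through the array's probesets (small groups of probes, each reading 1 stretch of a gene) that the platform annotation assigned to exactly 1 symbol. All 10 had such probesets, 12 to 47 each, out of 18923 symbols on the array.

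A ligand on 1 cell binds a Notch receptor on its neighbour, and the bound receptor is cut first by an ADAM protease and then, within the membrane, by gamma-secretase. The freed intracellular part enters the nucleus, joins the DNA-binding protein RBPJ and a Mastermind coactivator, and switches on genes such as HES1 and HEY1, which encode transcriptional repressors. In the stomach and gut the pathway is known for keeping progenitor cells dividing and for the choice between absorptive and secretory fates.

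The series held 1 array of each line, hybridised with total RNA depleted of ribosomal RNA. The labels describe MKN45 as gastric cancer and MKN45P as a highly metastatic line derived from it. Both were grown in RPMI medium with serum, glutamine, penicillin and streptomycin, and harvested with trypsin-EDTA; the labels name no treatment and no genetic change in either line, and do not say how MKN45P was derived. There was no replicate culture, so the differences below were not tested, and the spread given with them is that between probesets of a gene on these arrays.

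Levels are the deposited log2 values, and the level of a gene is the median over its probesets. The difference of a gene is the MKN45P value minus that of MKN45 at each probeset, summarised by the median and in log2 units, so that -1 means 2-fold lower in MKN45P. A probeset was said to have signal where the mean of its 2 values was at least 2.77, the 75th percentile of all 877986 probesets and values under it lie near the low end of the scale. Probes differ in brightness, so levels were compared between the lines and not between genes. Genes were called measured when they had 4 or more probesets and a median level no lower than 1.92, the median of all probesets. All 10 Notch genes were measured, among 13130 genes.

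The arrays as a whole carried epithelial RNA, and brighter genes were on the whole a little higher in MKN45P. All 6 epithelial markers were above 2.77 in both lines. The brightest, the cadherin gene CDH1, read 10.26 in MKN45 and 10.74 in MKN45P, a difference of 0.55. The dimmest, the keratin gene KRT8, read 3.31 and 3.13, a difference of -0.21. Of the 5 measured epithelial markers 3 lay above 0 and 2 below. KRT19 had 2 probesets, both lower in MKN45P, and was at -0.76, though not measured by the rule above. Of 11 endothelial markers 2 reached 2.77 in each line, of 8 fibroblast and pericyte markers none did in MKN45 and 1 in MKN45P, and of 6 immune markers 1 did in MKN45 and none in MKN45P. Markers of mesothelium, the lining of the body cavities, were not low as a group: 4 of 5 reached 2.77 in both lines. Of these CALB2 read 8.70 in MKN45 and 9.49 in MKN45P, a difference of 0.48, and WT1 read 5.32 and 4.18, a difference of -0.59. UPK3B, at 6.26 and 4.50, was past 2-fold lower at -1.06 with 7 of 7 probesets lower, though under 2-fold, at -0.97, with loess scaling. Whether these genes' levels bear on the Notch values was not tested. The median difference was 0.03 over all measured genes and 0.12 over the 8081 with a median level of at least 2.77. Of all measured genes 7211 lay above 0 and 5917 below, and of those 8081, 5075 above and 3006 below.

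Of the 10 Notch genes, NOTCH1 was more than 2-fold lower in MKN45P, and JAG1 was lower by a smaller amount. At least 2-fold lower was 1 of 10 genes, against 1.2% of the 13130 measured genes, and at least 2-fold higher was none, against 4.58%. The members' median difference was -0.08, and 6 of the 10 lay below 0. Without NOTCH1 the median of the other 9 was -0.02. The target gene HES1 was at 0.17 and HEY1 at -0.13.

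**Figure D1:**
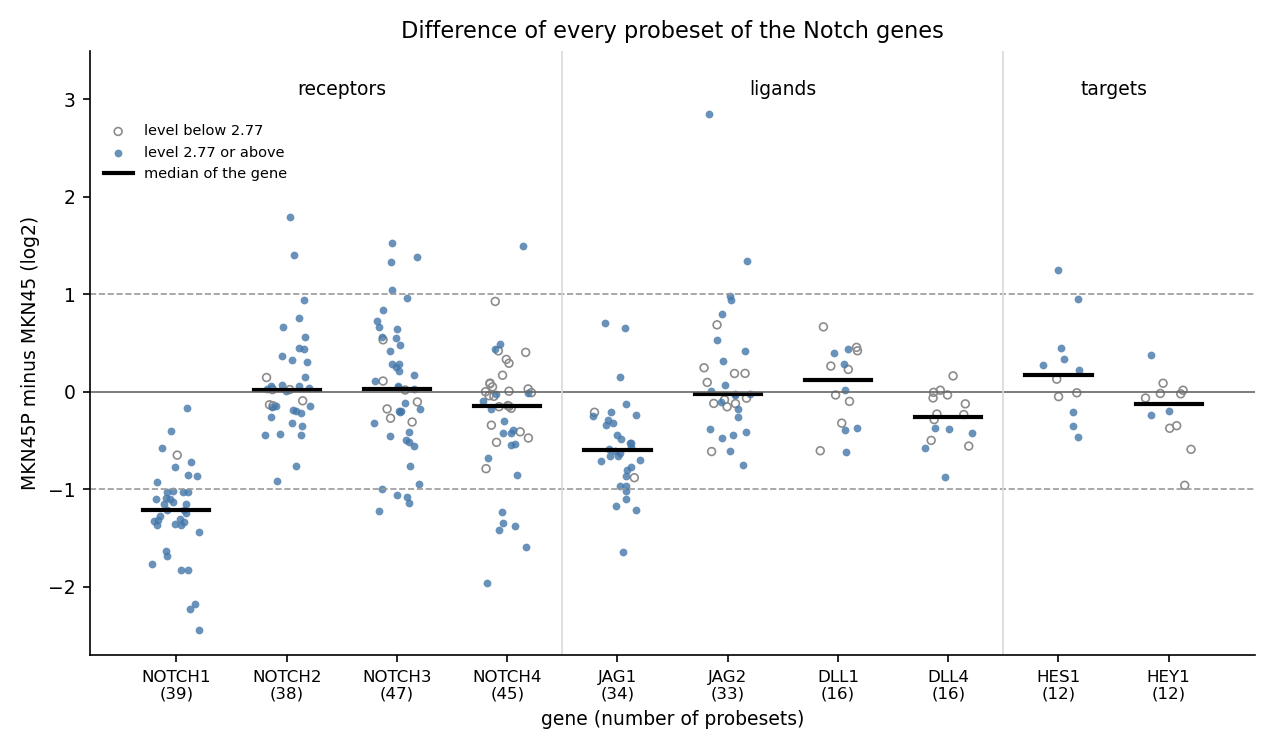
Each point is 1 probeset of a Notch gene, placed by its MKN45P minus MKN45 difference (log2, vertical axis); genes are on the horizontal axis with their number of probesets, filled points have a mean level of 2.77 or above, black bars are gene medians and dashed lines mark 2-fold. All 39 points of NOTCH1 and 31 of the 34 of JAG1 lie below 0, and the other genes have points on both sides.

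NOTCH1 encodes the receptor that is best known in the renewal of epithelial and blood cells. Its level was 6.10 in MKN45 and 4.58 in MKN45P. The difference over its 39 probesets was -1.21 (interquartile range -1.37 to -1.02), that is 2.32-fold lower in MKN45P. In bulk RNA, fewer cells with NOTCH1 RNA and less of it per cell cannot be told apart. Every probeset was lower in MKN45P, and 30 of the 39 were at least 2-fold lower by themselves. The brightest in MKN45, probeset 3230169, read 8.05 there and 6.71 in MKN45P. The largest drop, at probeset 3230176, was from 7.29 to 4.85, and the smallest, at probeset 3230219, from 3.59 to 3.42.

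The shift of NOTCH1 was alike over bright and dim probesets. The 20 probesets at or above the gene's own median level had a median difference of -1.18, and the 19 below it had -1.21. The interquartile range was 0.35 wide, against a median width of 0.53 over all measured genes. Over the 759 measured genes past 2-fold in either direction the median width was 1.17. Of those 759 genes 12 were as narrow as NOTCH1 or narrower, itself included. Of the 13130 measured genes 101, or 0.769%, had a difference as low as that of NOTCH1 or lower. Counted after its values were seen, 1565 measured genes had at least 30 probesets, and 6 of them were lower in MKN45P at every one. NOTCH1 was 1 of the 4 among those 6 that were at least 2-fold lower, with the ion cotransporter gene SLC12A2, the collagen receptor chain ITGA2 and the motor protein gene MYO10. Across 9 other ways of scaling, summarising and filtering the values, the difference of NOTCH1 stayed between -1.52 and -1.19. The 2 level filters and the minimum of 10 probesets only choose genes, so they left it at -1.21 by construction.

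**Figure D2:**
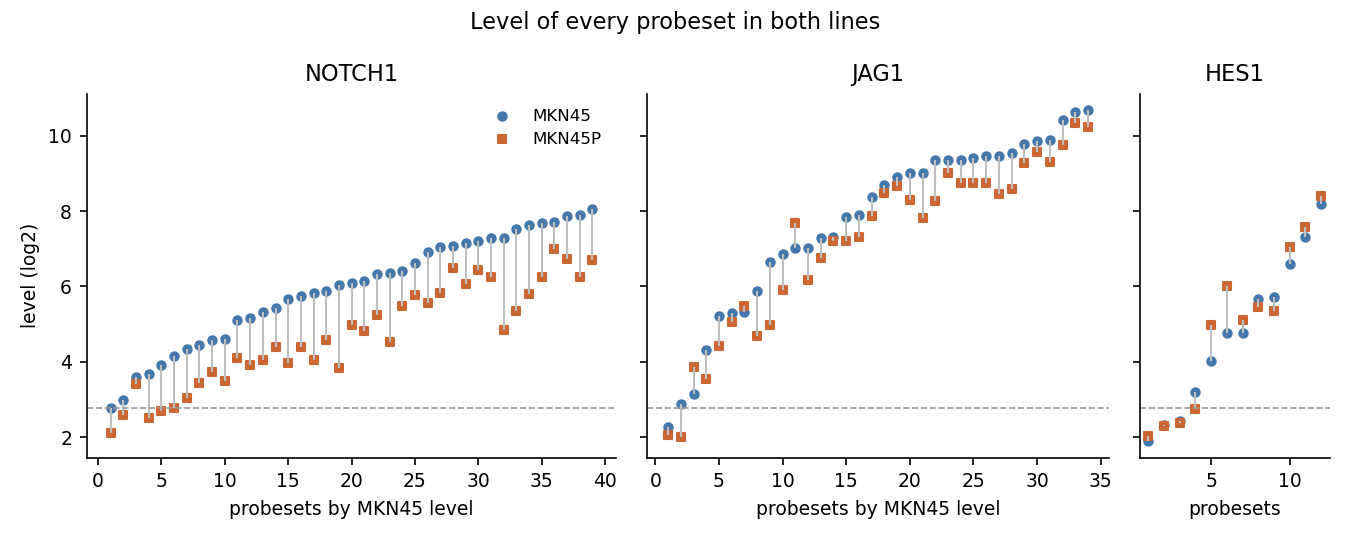
The vertical axis is the level (log2) of each probeset of NOTCH1, JAG1 and HES1 in MKN45 (circles) and MKN45P (squares), with probesets ordered along the horizontal axis by their MKN45 level and grey lines joining the values of 1 probeset; the dashed line is 2.77. The squares lie under the circles at all 39 probesets of NOTCH1, at 31 of 34 of JAG1 and at 5 of 12 of HES1.

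The other receptors lay closer to 0 on these arrays; the differences between receptors were not tested. NOTCH2, a widely expressed receptor, had levels of 4.93 in the parent and 4.99 in MKN45P. Its difference was 0.02 (interquartile range -0.20 to 0.32), with 21 probesets higher and 17 lower in MKN45P. The differences of single probesets ranged from -0.92 to 1.79. NOTCH2 has partial copies of near-identical sequence, the NOTCH2NL genes, so its values are uncertain. The 3 probesets annotated to NOTCH2NL were near the low end, at a median of 2.04 in MKN45 and 1.94 in MKN45P.

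NOTCH3 encodes the receptor known for its part in the smooth muscle of arteries. Its level was 4.01 in MKN45 and 3.65 in MKN45P, yet the median of its probeset differences was 0.03 (interquartile range -0.36 to 0.51). Of 47 probesets 25 were higher and 22 lower in MKN45P, and 4 passed 2-fold in each direction. The sign of NOTCH3 was therefore not settled. The difference between its median levels was -0.36, and the other alternatives gave values above 0, up to 0.14. The level filters and the probeset minimum could not change its value.

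NOTCH4 encodes a receptor found mainly on endothelial cells. Its level lay near the low end, at 2.55 in MKN45 and 2.43 in MKN45P, and 21 of its 45 probesets had signal. The difference was -0.15 (interquartile range -0.52 to 0.05) over all probesets. Over the 21 with signal it was -0.43, and 18 of these were lower in MKN45P. The brightest of them in MKN45 read 8.24 there, and 5 of the 45 had a mean level of at least 5.

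JAG1, the ligand that binds Notch receptors in many epithelia, was bright in both lines and lower in MKN45P at most of its probesets. Its level was 8.54 in MKN45 and 7.84 in MKN45P. The difference was -0.60 (interquartile range -0.85 to -0.30), or 1.51-fold lower, and so short of 2-fold. Of its 34 probesets 31 were lower in MKN45P, 5 of them at least 2-fold. Its brightest, probeset 3897516, read 10.68 in MKN45 and 10.24 in MKN45P, and the largest drop, at probeset 3897587, was from 6.64 to 4.99. The 3 that were higher in MKN45P were 3897507 (0.71), 3897543 (0.65) and 3897555 (0.16).

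The shift of JAG1 was as large at its bright as at its dim probesets. The 17 brighter probesets of JAG1 had a median difference of -0.61 and the 17 dimmer ones -0.59. Of the 13130 measured genes 483, or 3.68%, had a difference as low or lower. Across the alternatives it ran from -0.72 to -0.56, always lower in MKN45P and never past 2-fold. For reference, 45.2% of the 226207 probesets of measured genes were lower in MKN45P.

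JAG2, the other Jagged ligand, was near 0 over the gene as a whole but held the 1 probeset of the Notch genes that departed widely from its gene. The levels were 3.92 in MKN45 and 4.11 in MKN45P, and the difference was -0.02 (interquartile range -0.18 to 0.31), with 15 probesets higher and 18 lower. The sign of JAG2 turned with the setting, between -0.02 and 0.19. Probeset 3581457 read 3.35 in MKN45 and 6.20 in MKN45P, a difference of 2.85. Probeset 3581458 was also higher in MKN45P, at 3.58 in MKN45 and 4.93 in MKN45P. Which exons these probesets read was not analysed here.

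An index, the difference of a probeset minus that of its gene, was called large at 2 or more in log2 units and examined at probesets with signal. Probeset 3581457 of JAG2 had an index of 2.88. It was the 1 large index upward among the 209 probesets with signal of the 10 genes, against 1.08% of 134550 such probesets of all measured genes. None was large downward, against 0.609%. The 38 examined probesets of NOTCH1 had indices from -1.23 to 1.04.

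The Delta ligands were near the low end in both lines. DLL1, a ligand with a known part in secretory progenitors of the gut, had levels of 2.70 in the parent and 2.77 in MKN45P, with a difference of 0.12 (interquartile range -0.33 to 0.40). Of its 16 probesets 7 had signal, and its brightest read 7.94 in MKN45 and 7.32 in MKN45P. DLL4, a ligand of sprouting blood vessels, had levels of 2.50 in the parent and 2.21 in MKN45P. Its difference was -0.26 (interquartile range -0.44 to -0.06), with 14 of 16 probesets lower in MKN45P. All 5 of its probesets with signal were lower, with a median of -0.42, and none of the 16 was 2-fold lower.

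DLL4 and NOTCH4 are best known from endothelial cells, and endothelial markers lay low in both lines. The 11 marker genes had levels between 1.63 and 3.40 in the parent and between 1.66 and 2.85 in MKN45P, with sums of 24.0 and 22.4. PECAM1 read 1.75 and 1.74, CDH5 2.06 and 1.87, and KDR 1.81 and 1.77, each in MKN45 and then MKN45P. The 7 measured markers all lay below 0, as did 5917 of the 13130 measured genes. Most of these 7 markers had a level under 2.77. Of the 8081 measured genes with a level of at least 2.77, 3006 lay below 0, a smaller share. The share was thus larger among dimmer genes, the likelier comparison for most of the markers. The markers had a median difference of -0.09, with the lowest at ENG (-0.30), followed by CLDN5 (-0.17) and ROBO4 (-0.16). The part of such RNA in the values of DLL4 and NOTCH4 was not tested.

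HES1 encodes a repressor of the helix-loop-helix class and is the most used readout of Notch activity. Its level was 4.77 in MKN45 and 5.24 in MKN45P. The difference was 0.17 (interquartile range -0.09 to 0.37), with 7 of 12 probesets higher and 5 lower in MKN45P. The brightest, probeset 2658630, read 8.18 in MKN45 and 8.40 in MKN45P. Probeset 2658623 had the largest difference, from 4.77 in MKN45 to 6.02 in MKN45P, and probeset 2658621 the lowest, from 3.21 to 2.75. Across the alternatives HES1 ran from 0.09 to 0.46, so it was in no case lower in MKN45P, and in no case past 2-fold.

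HEY1, a related repressor known from heart and vessel development, was near the low end. Its levels were 2.19 in MKN45 and 2.15 in MKN45P, and the difference was -0.13 (interquartile range -0.35 to -0.01). Of its 12 probesets 9 were lower in MKN45P, but 3 had signal, too few for a value from those alone.

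The target genes HES1 and HEY1 had differences of 0.17 and -0.13. The promoters of HES1, NOTCH1 and JAG1 are shown because NOTCH1 and JAG1 lay lower in MKN45P and HES1 did not. They are also shown because RBPJ binds the HES1 promoter directly. Each is the 250 bases before the gene's start site, from RefSeq on GRCh38.p14, 5′ to 3′ on the gene's strand. That of HES1 is chr3:194135898-194136147 on the plus strand, that of NOTCH1 chr9:136546049-136546298 on the minus strand and that of JAG1 chr20:10674000-10674249 on the minus strand. Capitals mark TGGGAA, the core of the RBPJ motif, searched on both strands.
HES1: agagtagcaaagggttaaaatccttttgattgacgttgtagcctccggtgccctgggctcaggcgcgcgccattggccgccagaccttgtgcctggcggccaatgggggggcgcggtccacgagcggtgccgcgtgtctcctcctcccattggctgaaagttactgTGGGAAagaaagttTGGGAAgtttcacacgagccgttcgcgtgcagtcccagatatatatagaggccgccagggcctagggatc
NOTCH1: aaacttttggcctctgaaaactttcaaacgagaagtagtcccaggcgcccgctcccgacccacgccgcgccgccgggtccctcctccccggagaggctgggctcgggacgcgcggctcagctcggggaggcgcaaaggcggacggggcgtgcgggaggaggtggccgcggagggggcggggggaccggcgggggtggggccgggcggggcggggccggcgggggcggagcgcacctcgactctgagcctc
JAG1: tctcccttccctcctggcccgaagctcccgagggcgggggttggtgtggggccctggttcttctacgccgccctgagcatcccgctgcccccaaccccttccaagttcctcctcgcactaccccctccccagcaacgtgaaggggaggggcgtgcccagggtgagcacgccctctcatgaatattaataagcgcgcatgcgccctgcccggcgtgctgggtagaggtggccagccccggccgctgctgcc

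HES1 held 2 copies of TGGGAA, at 84 to 79 and at 70 to 65 bases before the start site, both on the gene's strand. The first is part of GTGGGAA, a longer form of the motif. Of the 8 Notch genes whose windows were searched, HES1 was the 1 with a match to TGGGAA. The windows of the receptors NOTCH1, NOTCH2, NOTCH3 and NOTCH4 and of the ligands JAG1, JAG2 and DLL4 had none. The windows of DLL1 and of the other target gene, HEY1, were not searched. Among 35116 promoter windows of the same length 20.8% held at least 1 copy of TGGGAA, 2.90% held 2 or more, and 5.43% held GTGGGAA. HES1 also binds its own promoter at N boxes, CACNAG, of which its window held 3. The windows of NOTCH3 and NOTCH4 held 1 each. Of all windows 32.0% held at least 1 N box and 6.32% held 2 or more. Other forms of the RBPJ motif were not searched, so a window without TGGGAA may still hold one. A match is a run of letters, and binding was not measured.

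**Figure D3:**
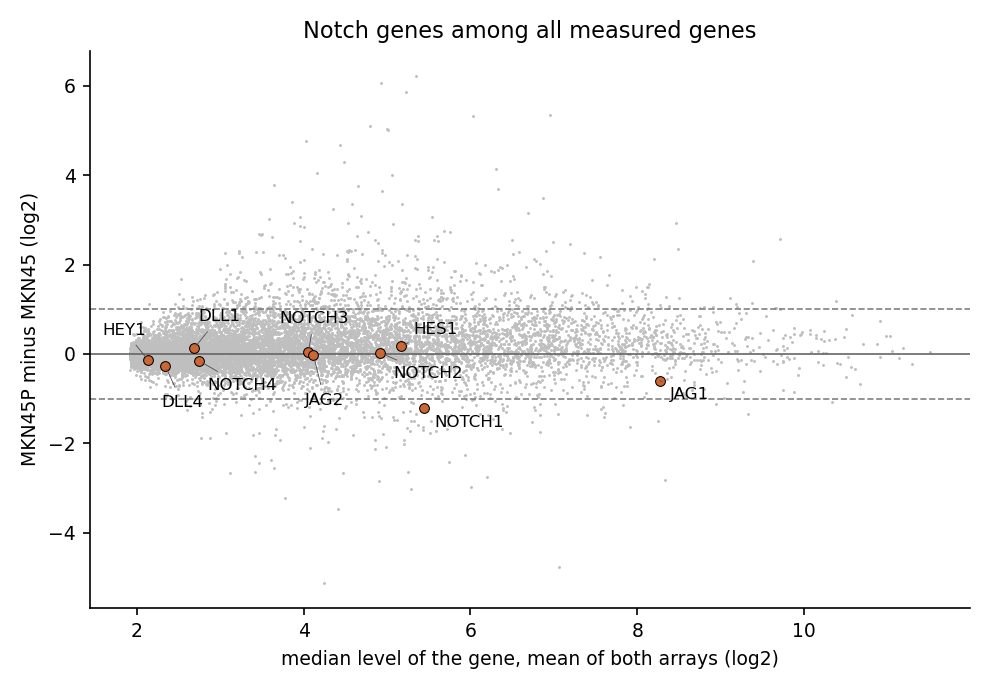
Each grey point is 1 of 13130 measured genes, placed by its median level over both arrays (log2, horizontal axis) and its MKN45P minus MKN45 difference (log2, vertical axis); the 10 Notch genes are labelled and dashed lines mark 2-fold. NOTCH1 lies under the lower dashed line at -1.21, JAG1 lies at -0.60, and the other 8 lie within 0.26 of 0.

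Of the other genes of the pathway, sorted into 8 lists by role, 5 passed 2-fold upward in MKN45P and none passed it downward. The lists held 77 genes, of which 70 had probesets and 64 were measured. Their median difference was 0.01, against 0.03 over all measured genes, with 33 above and 31 below 0. The 5 past 2-fold upward, ADAM17, AAK1, PSENEN, MAML3 and TLE1, are 5 of 64 genes, beside the 4.58% of all measured genes given above.

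Both steps of receptor cleavage had a gene that was 2-fold higher in MKN45P. Of 8 measured proteases and protease subunits 7 lay above 0, as did 7211 of the 13130 measured genes, and their median was 0.17. ADAM17, a sheddase of surface proteins that can cut Notch, had levels of 4.53 in the parent and 6.92 in MKN45P and a difference of 2.64 (interquartile range 2.01 to 3.06, 22 of 23 probesets higher). PSENEN, the smallest subunit of gamma-secretase, had levels of 3.46 and 5.90 and a difference of 1.64, its 9 probesets having an interquartile range as wide as 0.14 to 2.14. NCSTN, the substrate-binding subunit, was at 0.41, and FURIN, which cleaves the receptor as it matures, at -0.59 with 18 of 19 probesets lower. ADAM10, the main protease of ligand-bound Notch, was bright in both lines, at 8.25 and 8.61, and differed by 0.12 (interquartile range -0.20 to 0.52).

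Of 8 measured nuclear partners, 1, MAML3, was past 2-fold, and the others lay within 0.32 of 0. MAML3, a Mastermind coactivator, had levels of 3.47 in the parent and 4.28 in MKN45P and a difference of 1.29 (interquartile range 0.46 to 1.52, 20 of 21 probesets higher). It was under 2-fold, at 0.81, as the difference between its median levels. RBPJ, the DNA-binding partner of Notch, had levels of 4.14 and 3.91 and a difference of 0.24 (interquartile range -0.04 to 0.69). Its median level was lower in MKN45P while the median of its probeset differences was above 0, so its sign was not settled. The median of the 8 genes was 0.01, with the RBPJ relative RBPJL at -0.31, the acetyltransferase EP300 at -0.32 and the coregulator SNW1 at 0.29.

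Among corepressors TLE1, a Groucho family partner of HES proteins, was just past 2-fold higher at 1.07 (interquartile range 0.23 to 1.71), with levels of 3.40 in the parent and 5.00 in MKN45P. With quantile normalization it was at 0.97 and so under 2-fold. SPEN, which holds RBPJ targets silent, was at 0.66 with 34 of 36 probesets higher, NCOR1 at 0.59 with 49 of 56 higher, and TLE3 at -0.46 with 28 of 32 lower. The median of the 11 measured corepressors was 0.01.

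Among 10 measured genes of turnover and inhibition AAK1, a kinase of endocytosis that phosphorylates NUMB, was more than 2-fold higher in MKN45P. Its level was 2.72 in MKN45 and 6.21 in MKN45P, and the difference was 2.64 (interquartile range 1.34 to 3.57, 38 of 39 probesets higher). The MKN45 level lay just under 2.77. NUMB, which sorts the receptor away from signalling, was at -0.75 with 19 of 22 probesets lower, DTX4, an endocytic ubiquitin ligase, at -0.66 with 16 of 17 lower, and ITCH, a ubiquitin ligase of Notch, at 0.53 with 28 of 31 higher. The median was 0.09.

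**Figure D4:**
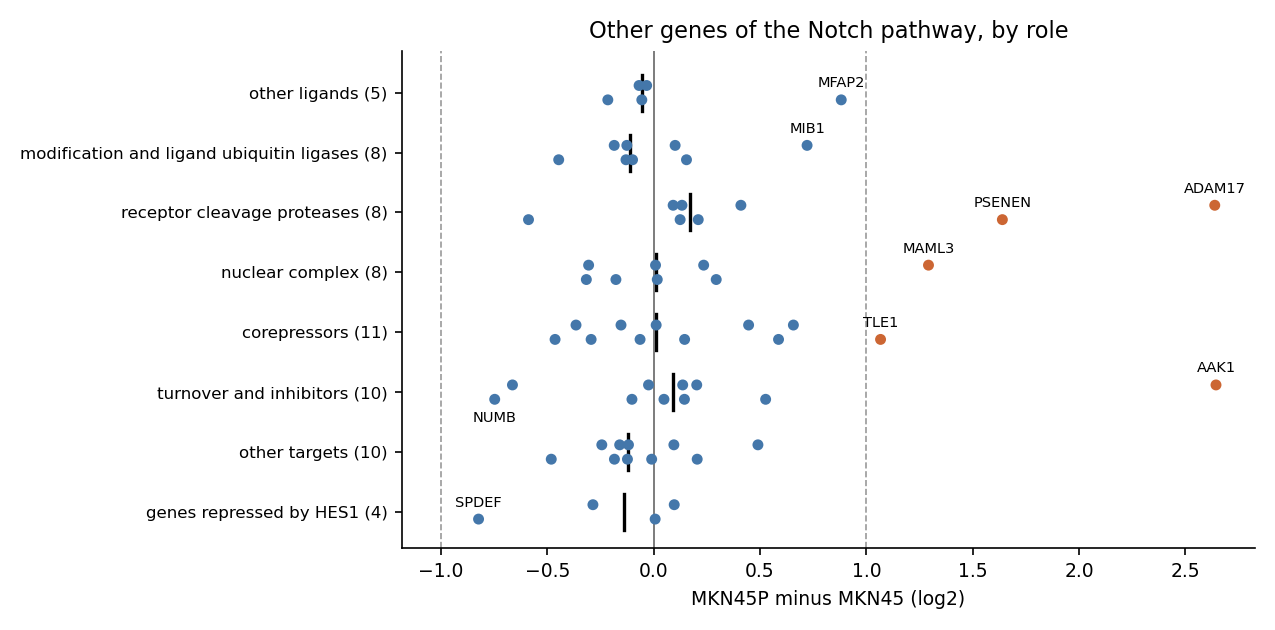
Each point is 1 measured gene of a pathway list, placed by its MKN45P minus MKN45 difference (log2, horizontal axis); the lists with their number of measured genes are on the vertical axis, black bars are list medians, dashed lines mark 2-fold and orange points are genes at least 2-fold higher in MKN45P. The 5 orange points are ADAM17, PSENEN, MAML3, TLE1 and AAK1, and no point lies at or under -1.

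The lists of other ligands and of modifying enzymes had no gene past 2-fold. Among 8 measured enzymes that add sugars to Notch or ubiquitin to its ligands, MIB1, a ubiquitin ligase that activates ligands, was at 0.72 with 31 of 33 probesets higher. The fringe gene MFNG was at -0.45, NEURL1 at -0.19 and POFUT1, which adds fucose to the receptor, at 0.15, with a median of -0.11 over the list. Among 5 measured further ligands MFAP2, a matrix protein that can bind Notch, was at 0.88 with levels of 7.91 and 9.03. DLK2 (-0.22), DLK1 (-0.07) and DNER (-0.06) were the next, each with a level under 2.77 in MKN45P, and the median was -0.06.

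None of the 10 measured genes listed as other targets was past 2-fold. Of these 3 were above and 7 below 0, beside 7211 above and 5917 below among the 13130 measured genes. The median was -0.12, beside 0.03 over all measured genes. Over the 8 genes with a value from probesets with signal it was -0.34, beside 0.09 over all genes so measured. Whether the targets differ from other genes was not tested. The largest differences were those of HES6 (0.49), HEYL (-0.48, 13 of 15 probesets lower), SOX9 (-0.24) and CDKN1A (0.20). The sign of CDKN1A was not settled, since its median level was 5.54 in MKN45 and 5.36 in MKN45P. HES6 had a wide interquartile range over its 7 probesets, from -0.24 to 1.72. Cyclin D1, CCND1, was bright, at 8.26 in the parent and 8.37 in MKN45P, a difference of 0.10.

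Of the genes of gut secretory cells that were listed as repressed by HES1, 4 were measured. None passed 2-fold by the median of its probesets, 2 were above and 2 below 0, and the median was -0.14. SPDEF, a factor of mucus-secreting cells, was at -0.82 (interquartile range -1.78 to -0.07, 8 of 9 probesets lower), with levels of 3.79 in the parent and 2.31 in MKN45P. It passed 2-fold downward by the mean of its probesets, by its median levels and over its probesets with signal. INSM1 was at -0.29, NEUROG3 at 0.10 and GFI1 at 0.01. ATOH1, the master factor of the secretory fate, had 2 probesets, at a level of 1.83 in MKN45 and 1.79 in MKN45P, and was not measured by the rule above.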

How the data were processed

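Total RNA of MKN45 and MKN45P was measured on 1 exon array each. The deposited values are log2 signals, 1 per probeset and array; the log2 scale was read from their range, 1.42 to 13.48. Partek and hg18 are named in the submitters' processing notes; how the authors corrected background, summarised probes and normalized is not given in the sources used. Values were used as deposited. Of 877986 probesets, 286871 had exactly 1 symbol in GEO's platform annotation and were used, 3137 had several and 587978 were unnamed. Older symbols were matched through RefSeq (GRCh38.p14). With 1 array per line no test or p-value was possible, and counts past 2-fold are counts by size; the number of arrays limits the precision.

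The members and the pathway lists were chosen with earlier results of these data known. All 10 members are named. Of each pathway list, genes past 2-fold and up to 4 with the largest differences are named, and of marker lists up to 3. ADAM10, RBPJ, CCND1, ATOH1, CDH1, KRT8, KRT19, PECAM1, CDH5 and KDR were added after their values were seen. Genes without probesets of their symbol were not analysed here. Alternatives were 3 scalings (quantile, loess, median centring), 2 gene summaries, probesets with signal alone, 2 level filters and at least 10 probesets per gene. The level filters and the probeset minimum choose which genes count and leave the difference of a gene unchanged. Median centring moves every gene by the same amount. Python 3.11.15, numpy 2.4.6, pandas 2.3.3 and statsmodels 0.14.6 were used, and the gene step was tested on simulated data.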

Additional observations from a re-analysis of the deposited data

How the results depend on the processing

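NOTCH1 was the 1 Notch gene at least 2-fold lower, and no Notch gene was 2-fold higher, under all 9 alternatives. The 2 level filters and the minimum of 10 probesets could not alter this for the genes they kept. NOTCH1 (-1.52) and HES1 (0.46) moved by more than 0.5 of their interquartile range when median levels were compared. JAG1, NOTCH4, DLL4 and HEY1 kept a negative and HES1 and DLL1 a positive sign wherever they had a value; NOTCH2, NOTCH3 and JAG2 took both. Requiring a level at the 75th percentile left 6 of the 10 genes, and HEY1 had too few probesets with signal.

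Pathway genes 2-fold lower numbered 1 by means of probesets, 1 by median levels (SPDEF in both) and 2 over probesets with signal (SPDEF and DNER). For the genes listed as repressed by HES1 that count was 1 in each of these, and their median over probesets with signal was -0.49 (3 genes). For other ligands, 1 gene was 2-fold higher by median levels and 1 lower over probesets with signal. The median of that list was -0.0239 with quantile normalization, -0.0245 with loess, -0.037 with median centring, -0.24 by means, 0.0214 by median levels, -0.39 over probesets with signal (4 genes) and 0.88 at the higher level filter, which left 1 gene, MFAP2. Among modifying enzymes 1 gene was 2-fold higher by median levels and 1 over probesets with signal, where the median was -0.27. Of proteases 1 was 2-fold higher with at least 10 probesets, since PSENEN has 9. By median levels 0 nuclear partners were 2-fold higher, with a list median of -0.22, and 2 corepressors were; with quantile normalization 0 corepressors were. Over probesets with signal the medians were 0.30 for turnover genes and -0.34 for other targets, beside 0.09 over all genes measured in that way. Where no reason is given, the cause was not tested. No paired analysis was possible because each line has 1 array. Levels near 2 are at the low end of the scale, which limits DLL1, DLL4, NOTCH4 and HEY1.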

Other observations

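By the median of probeset differences, no gene beside NOTCH1 or JAG1 in chromosome order was 2-fold lower. Of the 10 measured genes nearest NOTCH1, 5 on each side, none was 2-fold lower or higher in MKN45P, and their median difference was -0.12, from -0.67 to 0.54. The nearest measured genes were SEC16A, an organiser of endoplasmic reticulum exit sites, at 0.54, and EGFL7, a secreted vascular factor, at 0.08. Of the 10 nearest JAG1, 9 lay above 0 and 1 below, with a median of 0.12; the 1 below was BTBD3 (-0.58), the next measured gene on 1 side, which read 4.82 in MKN45 and 3.41 in MKN45P. By the difference between median levels BTBD3 was past 2-fold lower, at -1.41, as was ENTR1 beside NOTCH1, from 5.78 to 4.78, and FLRT3 beside JAG1 was past 2-fold higher, at 1.07; on that scale NOTCH1 was at -1.52.

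NOTCH4 lies near genes of antigen presentation that were 2-fold higher or more in MKN45P, and its own difference was -0.15. Of its 10 nearest measured genes 3 were 2-fold higher in MKN45P: TAP2 (2.09) and TAP1 (3.68), which form the peptide transporter, and PSMB8 (4.005), an immunoproteasome subunit. The other 7 lay between -0.18 and 0.51. RefSeq gene order was used, and the neighbours were chosen by order alone.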
